A study of Mus musculus with 9 samples.

Results

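Gene expression in area CA1 of the mouse hippocampus was compared between 3 libraries labelled H2A.Z shRNA with contextual fear conditioning (trained) and 3 libraries labelled scrambled shRNA (control). These are 6 of the 9 libraries of the study, and the comparison covers the 12250 genes, of 24489 rows in the deposited table, whose mean over the 6 was 1 FPKM or more. FPKM counts the sequenced fragments per kilobase of a gene's transcript, scaled to the size of the library. All mice were C57BL/J6, 9 to 12 weeks old, and all had been infected with an adeno-associated virus (AAV), which delivers a gene to the cells it enters. In the control group the vector expressed a scrambled short hairpin RNA (shRNA), and in the trained group an shRNA against the histone variant H2A.Z. The trained mice had in addition undergone contextual fear conditioning, in which an animal learns to link a chamber with a foot shock. The remaining 3 libraries, labelled H2A.Z shRNA naive, had the same hairpin without conditioning. They enter the fit as a source of the spread between libraries, and for many but not all named genes their values are given as well. Whether the control mice were trained, the time between training and dissection, the promoter that drives the hairpin and the cells it reaches are not stated in the labels or the study's text used here. Hairpin and training therefore cannot be told apart in trained against control, and since no label ties the samples to separate animals, p-values measure the spread between these samples only.

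H2A.Z replaces ordinary histone H2A in nucleosomes next to promoters and is exchanged when neurons are active. Neurons that fire during learning switch on immediate early genes within minutes through calcium, cAMP and MAP kinase signals that reach the factors CREB and SRF. A foot shock also releases glucocorticoids, which enter neurons, bind nuclear receptors and raise genes that carry a glucocorticoid response element. Sgk1, which encodes serum- and glucocorticoid-regulated kinase 1, responds to both kinds of signal. Class I and class II histocompatibility genes, which show peptides to T cells, are low in the healthy hippocampus and high where microglia are activated or lymphocytes have entered.

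Promoter sequences of 5 genes on which the results turn are shown first, since they carry letters read by the factors named above. They come from the RefSeq table of GRCm38.p6, which gives a window that reaches from before a transcript start to shortly after it, and are written 5′ to 3′ on the strand of the gene. In the Sgk1 window at chr10:21993640-21993939 on the plus strand, the capitals mark the glucocorticoid response element, searched on either strand as AGAACA, any 3 bases and TGTTC.
Sgk1: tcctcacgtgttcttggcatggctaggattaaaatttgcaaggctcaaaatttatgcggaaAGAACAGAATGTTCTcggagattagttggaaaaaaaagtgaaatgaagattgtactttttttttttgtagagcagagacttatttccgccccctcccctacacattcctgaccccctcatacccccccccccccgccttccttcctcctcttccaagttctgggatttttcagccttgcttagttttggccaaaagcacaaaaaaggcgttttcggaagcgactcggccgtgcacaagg
That element was found in 16 of 32851 windows searched, or 0.0487%, and in 1 of the 6 windows of Sgk1. The same search gave no match in the windows of Per1, Dusp1, Nfkbia, Errfi1 and Fkbp5, which are also on the glucocorticoid-induced list below. Where a gene has several windows, one with the most matches is printed. The Sgk1 element spans 21993701 to 21993715 and starts 965 bases upstream of the start of the principal Sgk1 transcript in GENCODE M21. In the windows of Fos (chr12:85473640-85473939, plus strand), Dusp1 (chr17:26508423-26508722, minus strand) and Per1 (chr11:69099902-69100201, plus strand), the capitals mark the cAMP response element half-site TGACG, read on either strand. In the Dusp1 window 2 of its 3 half-sites overlap in the full palindrome TGACGTCA.
Fos: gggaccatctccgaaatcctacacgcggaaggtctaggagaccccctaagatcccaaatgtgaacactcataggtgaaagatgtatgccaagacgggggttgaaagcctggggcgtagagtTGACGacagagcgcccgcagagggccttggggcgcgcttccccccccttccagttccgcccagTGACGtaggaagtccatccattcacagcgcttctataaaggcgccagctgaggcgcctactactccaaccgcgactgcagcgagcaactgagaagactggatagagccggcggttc
Dusp1: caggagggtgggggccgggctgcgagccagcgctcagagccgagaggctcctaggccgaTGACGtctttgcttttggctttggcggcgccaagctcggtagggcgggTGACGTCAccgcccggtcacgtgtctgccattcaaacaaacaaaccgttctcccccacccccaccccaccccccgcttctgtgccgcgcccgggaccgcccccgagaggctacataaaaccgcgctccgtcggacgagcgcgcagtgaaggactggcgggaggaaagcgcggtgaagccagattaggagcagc
Per1: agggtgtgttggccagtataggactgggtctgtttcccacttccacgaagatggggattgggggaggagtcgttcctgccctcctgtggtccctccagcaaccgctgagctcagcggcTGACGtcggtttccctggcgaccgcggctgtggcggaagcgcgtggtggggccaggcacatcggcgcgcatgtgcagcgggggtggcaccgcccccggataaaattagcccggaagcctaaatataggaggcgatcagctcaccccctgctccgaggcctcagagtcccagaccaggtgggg
The half-site was present in 20.8% of windows and the palindrome in 1.79%. In the window of H2-Aa (chr17:34287774-34288073, minus strand) the capitals mark the palindrome and, after it, a CCAAT box read on the opposite strand as ATTGG, a motif held by 37.4% of windows.
H2-Aa: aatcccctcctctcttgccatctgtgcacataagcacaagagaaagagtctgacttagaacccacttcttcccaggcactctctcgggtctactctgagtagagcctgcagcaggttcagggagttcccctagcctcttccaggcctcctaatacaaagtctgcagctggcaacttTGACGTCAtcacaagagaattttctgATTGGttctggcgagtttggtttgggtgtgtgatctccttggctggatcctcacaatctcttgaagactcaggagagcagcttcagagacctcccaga
A match is a description of letters in these windows and does not show that a factor was bound.

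A gene at 1 FPKM rested on roughly 18.9 to 25.4 fragments per kilobase, by an estimate from the steps between low values. Pearson's r of log2(FPKM + 1) between libraries, across genes, which are not independent replicates, was 0.959 to 0.969 within the control group, 0.962 to 0.976 within the trained group and 0.957 to 0.965 between them. The pairs between groups were thus about as alike as pairs within a group. The tissue label was checked against markers. Wfs1, a marker of CA1 pyramidal neurons, stood at 76.8, 84.8 and 99.6 FPKM in the control and 78.5, 78.2 and 101.9 in the trained libraries, and Prox1, the transcription factor that marks granule neurons of the dentate gyrus, at 18.9, 11.8 and 9.66 and 24.2, 14.1 and 16.2. Both kinds of marker were thus present in all 6 libraries, so the dissected tissue also held RNA of granule neurons. Ttr, which marks the choroid plexus, was at 33.2, 132 and 764 and 92.7, 38.4 and 96.4, which sets control replicate 3 apart. Replicate numbers here are names in the order of the accessions and pair nothing.

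The mRNA that the hairpin targets was not lower in the trained libraries by more than the libraries varied. H2afz, the gene of H2A.Z.1, stood at 26.1, 28.7 and 26.4 FPKM in the control and 28.5, 23.9 and 25.8 in the trained libraries (log2 fold change -0.06 ± 0.07 SE, adjusted p = 0.825 by limma). H2afv, the gene of H2A.Z.2, stood at 14.3, 14.7 and 16.2 and 15.0, 12.999 and 14.5 (log2 fold change -0.08 ± 0.06 SE, adjusted p = 0.720 by limma). In both genes the groups overlapped, so every direction below is between libraries as they are labelled. The 6 H2A variant genes measured had a median log2 fold change of -0.07, with 0 called.

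A single gene passed the threshold as higher in the trained libraries and none as lower. Over the 12250 genes, Sgk1 was the only gene past the limma adjusted p threshold of 0.05 (0.00816% of genes), while 0 were lower at that threshold. An unadjusted p under 0.05 was seen for 481 higher genes (3.93%) and 471 lower genes (3.84%), or 952 genes (7.77%) in all, against 612 expected by chance. The trained and control values did not overlap for 777 higher genes (6.34%) and 748 lower genes (6.11%). The typical gene moved little: the median log2 fold change was -0.01, 47.1% of genes lay above 0, and the 5th and 95th percentiles were -0.19 and 0.21. Fold changes are differences of mean log2(FPKM + 1), which understates the change of genes of low level. In the fit of only the 6 trained and control libraries 5 genes were higher, namely Sgk1, B3gat2, Cd74, H2-Aa and H2-Ab1, of which the last 2 reached the mean of 1 FPKM only through the trained libraries. With single libraries left out the count ranged from 0 higher and 0 lower, without control replicate 2, trained replicate 3 or naive replicate 2, to 15 higher and 7 lower without control replicate 1.

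**Figure D1:**
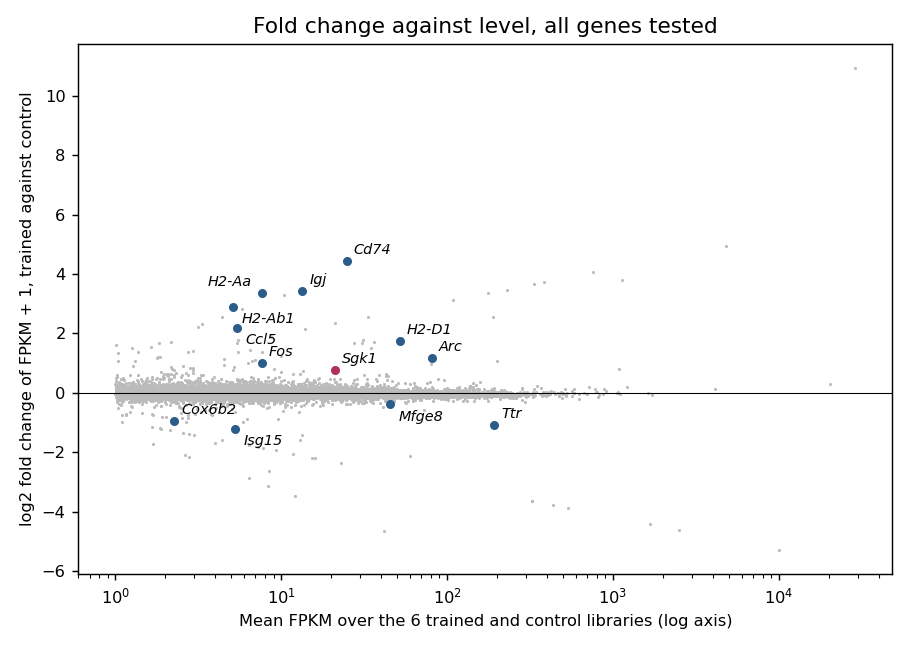
Each point is one of the 12250 genes, with its mean FPKM over the 6 libraries on a log horizontal axis and its log2 fold change of FPKM + 1, trained against control, on the vertical axis; genes described in the text are named and Sgk1 is in red. Most genes lie between -0.19 and 0.21, Sgk1 lies at 0.76, antigen presentation, chemokine and immunoglobulin genes reach higher, and unnamed points far from 0 at high levels are mostly rows of small RNA genes.

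Sgk1, at chromosome 10, 21882184 to 21999903, plus strand (GRCm38), encodes a kinase that keeps ion channels and transporters at the cell surface and acts on the ubiquitin ligase Nedd4l. It stood at 16.6, 15.4 and 14.2 FPKM in the control and 26.4, 27.1 and 26.5 in the trained libraries (log2 fold change 0.76 ± 0.07 SE, adjusted p = 0.0166 by limma). The naive libraries, which carry the same H2A.Z hairpin, stood at 13.2, 14.9 and 15.0. The 3 trained libraries lie close together and above every other library, while the naive and control ranges overlap. Trained against naive, the difference was also past the threshold (log2 fold change 0.85 ± 0.07 SE, adjusted p = 0.00640 by limma), and Sgk1 was again the only gene called. The size of the difference against control was 0.71 to 0.81 with each library left out in turn, but the adjusted p passed the threshold no longer without control replicate 2 (limma adjusted p = 0.170), trained replicate 2 (0.0841), trained replicate 3 (0.202) or naive replicate 2 (0.0505).

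No partner of the kinase passed the test. Of 18 measured genes of the list of SGK kinases and partners, 8 lay above 0 and 10 below, with a median log2 fold change of -0.01, and Sgk1 was the only one called; the median was 0.03 with quantile normalization. Sgk3, a kinase of the same family, stood at 1.51, 1.81 and 2.08 FPKM in the control and 1.43, 1.60 and 1.71 in the trained libraries. Pdpk1, the kinase that activates SGK1 by phosphorylation, stood at 25.4, 24.4 and 25.4 and 27.9, 27.6 and 28.2. For Sgk3 the ranges overlapped, while Pdpk1 was a little higher in each trained library (log2 fold change 0.15 ± 0.04 SE, adjusted p = 0.502 by limma). Akt2, a kinase related to SGK1, stood at 20.2, 19.3 and 21.6 and 17.5, 17.3 and 17.0 (log2 fold change -0.23 ± 0.06 SE, adjusted p = 0.502 by limma). Ndrg1, a substrate of SGK1, stood at 26.0, 32.5 and 26.1 and 19.7, 24.1 and 20.8. Both were lower in every trained than in every control library, without passing the test. Sgk3 was named after its values were seen.

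Immediate early transcription factors mostly lay above 0 in the trained libraries, but no single one passed the test. Of 30 on the list 27 were measured at 1 FPKM or more, 24 of them above 0, and the median log2 fold change was 0.21. In 9 of the 27, or 33.3%, each trained library exceeded each control library, against 6.34% of all genes, and in 0 each was lower. An unadjusted p under 0.05 was seen for 11, all higher, against 3.93% of all genes on the higher side. Fos stood at 6.16, 4.59 and 3.55 FPKM in the control and 7.55, 12.2 and 11.7 in the trained libraries (log2 fold change 0.99 ± 0.20 SE, adjusted p = 0.502 by limma). Fos, the subunit of the AP-1 factor that marks recently active neurons, lies at chromosome 12, 85473890 to 85477273, plus strand. The lowest trained library exceeded the highest control library, and the naive libraries, at 5.24, 6.67 and 6.72, lay below every trained library and overlapped the controls. Trained against naive the log2 fold change of Fos was 0.65 (limma adjusted p = 0.564).

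Members of the Egr and Nr4a families differed from one another. Egr1, a zinc finger factor of memory formation, stood at 98.5, 72.7 and 72.6 FPKM in the control, 95.9, 109.4 and 126 in the trained and 58.7, 65.1 and 76.6 in the naive libraries. Control replicate 1 lay just above the lowest trained library, so the ranges overlapped (limma adjusted p = 0.634). Egr4, of the same family, stood at 12.4, 10.6 and 12.8 in the control, 14.4, 17.1 and 18.7 in the trained and 10.9, 10.8 and 13.1 in the naive libraries (log2 fold change 0.45 ± 0.11 SE, adjusted p = 0.502 by limma). Egr2 stood at 2.77, 0.902 and 1.68 in the control and 3.04, 3.37 and 5.16 in the trained libraries. In both genes all 3 trained libraries lay above all controls. Nr4a1, an orphan nuclear receptor, stood at 41.7, 29.0 and 33.1 and 41.5, 55.3 and 56.8 (log2 fold change 0.55 ± 0.17 SE, adjusted p = 0.597 by limma), and its ranges overlapped narrowly at control replicate 1. Nr4a3, its relative, stood at 10.9, 11.2 and 13.2 in the control, 13.7, 15.7 and 14.7 in the trained and 10.8, 11.7 and 11.0 in the naive libraries (log2 fold change 0.30 ± 0.08 SE, adjusted p = 0.502 by limma). Btg2, an antiproliferative factor induced by neuronal activity, stood at 5.51, 3.73 and 3.91 in the control, 6.56, 5.93 and 6.81 in the trained and 6.37, 5.68 and 6.94 in the naive libraries. Both were separated from the controls, Nr4a3 also from the naive libraries and Btg2 not. Egr3 and Nr4a2, named after their values were seen, stood at 45.0, 38.4 and 47.8 and 29.3, 33.4 and 30.2 in the control and at 47.3, 45.5 and 51.3 and 25.8, 37.9 and 30.2 in the trained libraries, with overlap (log2 fold changes 0.14 and 0.00, limma adjusted p = 0.722 and 0.999). Npas4, a factor that only neuronal activity switches on, stood at 2.97, 1.61 and 0.982 and 1.79, 2.28 and 2.48 with full overlap (limma adjusted p = 0.795). Junb and Fosb, AP-1 subunits, stood at 31.2, 18.9 and 24.8 and 2.52, 2.0005 and 2.41 in the control libraries and at 33.6, 37.2 and 42.7 and 3.02, 3.52 and 3.47 in the trained ones. In both, each trained library exceeded each control library. Junb, Fosb and Egr2 were named after their values were seen.

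**Figure D2:**
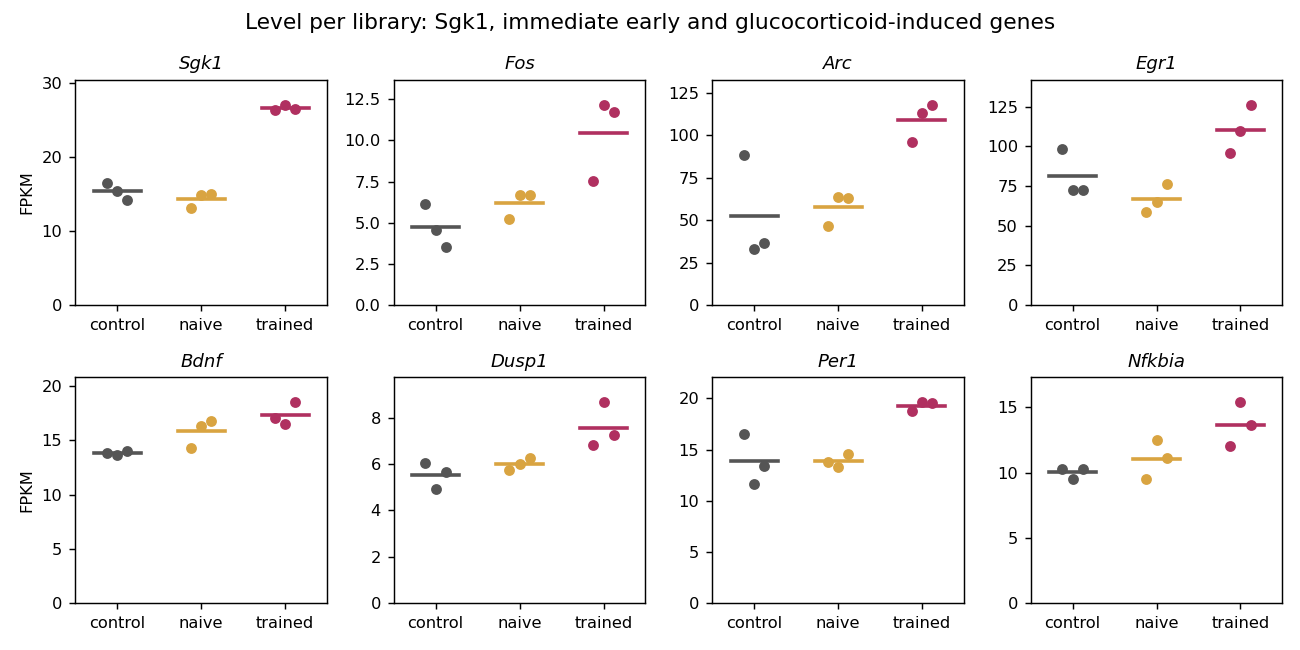
FPKM per library (points) and group mean (bars) for 8 genes in control, naive and trained libraries; each vertical axis starts at 0. Sgk1 is at 26.4 to 27.1 in the trained libraries and at 13.2 to 16.6 in all others, and control replicate 1 is the highest control library for every gene shown except Bdnf.

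Among the effectors that activity induces in neurons, the pattern was weaker over the list and clear in a few genes. Of 33 measured members 22 lay above 0 and 11 below, with a median log2 fold change of 0.06, and in 8 of the 33 (24.2%) each trained library exceeded each control library, against 6.34% of all genes. The mean of 1 of the 33 reached 1 FPKM through the trained libraries alone. Arc, which encodes a capsid-like protein that regulates glutamate receptors at synapses, lies at chromosome 15, 74669083 to 74672570, minus strand. Arc stood at 88.4, 32.9 and 36.8 FPKM in the control and 95.7, 113 and 118 in the trained libraries, and at 46.8, 63.8 and 62.8 in the naive ones. The trained libraries lay above all others, and control replicate 1 stood far above the other controls. The estimate for Arc was a log2 fold change of 1.17 ± 0.32 SE (limma adjusted p = 0.536), and without control replicate 1 it was 1.61 (limma adjusted p = 0.0174). Across the other alternatives given below, the limma adjusted p of Arc was as high as 0.964. Bdnf, the neurotrophin needed for lasting synaptic change, stood at 13.9, 13.7 and 14.1 in the control, 17.1, 16.5 and 18.5 in the trained and 14.3, 16.3 and 16.8 in the naive libraries (log2 fold change 0.30 ± 0.06 SE, adjusted p = 0.502 by limma). The controls of Bdnf were nearly equal, and the naive libraries reached into the trained range. Gadd45g, a stress and activity gene linked to DNA demethylation, stood at 8.88, 7.56 and 6.09 in the control, 11.0, 11.1 and 10.6 in the trained and 10.1, 11.8 and 12.3 in the naive libraries. Sik1, a salt-inducible kinase that restrains CREB coactivators, stood at 2.56, 2.24 and 2.03 in the control, 2.97, 3.91 and 3.05 in the trained and 2.35, 2.43 and 2.51 in the naive libraries. Cyr61, a secreted matrix protein, stood at 1.04, 1.26 and 1.47 in the control, 1.87, 2.202 and 2.18 in the trained and 1.67, 1.92 and 1.29 in the naive libraries. In all 3 the trained libraries exceeded the controls, while the naive libraries exceeded them only in Gadd45g, where they were as high as the trained ones.

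The MAP kinase feedback genes encode phosphatases and adaptors that are induced by the pathway and switch it off. Of 15 measured members 9 lay above 0, and the median log2 fold change was 0.06, and in 4 of the 15 (26.7%) each trained library exceeded each control library, against 6.34% of all genes. Dusp1, a phosphatase of MAP kinases, lies at chromosome 17, 26505590 to 26562128, minus strand. It stood at 6.07, 4.91 and 5.68 in the control, 6.84, 8.67 and 7.26 in the trained and 5.76, 6.03 and 6.28 in the naive libraries (log2 fold change 0.39 ± 0.09 SE, adjusted p = 0.502 by limma). All 3 trained libraries lay above the other 6. Errfi1, an inhibitor of the epidermal growth factor receptor, stood at 15.1, 11.7 and 12.8 in the control and 16.0, 16.8 and 16.2 in the trained libraries. Dusp5, a nuclear phosphatase of ERK, stood at 8.24, 7.95 and 6.87 in the control, 8.33, 10.8 and 11.0 in the trained and 5.68, 5.46 and 7.50 in the naive libraries (log2 fold change 0.34 ± 0.13 SE, adjusted p = 0.634 by limma). Dusp6, its cytoplasmic relative, stood at 30.5, 24.2 and 32.6 and 30.6, 38.1 and 41.0 with overlapping ranges. Dusp5 and Errfi1 were higher in each trained than in each control library, and in Dusp5 the naive mean was the lowest of the 3 groups.

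Genes that glucocorticoids induce lay above 0 in 24 of 25 measured members, and the median log2 fold change was 0.16 against -0.01 over all genes. In 10 of the 25, or 40.00%, each trained library exceeded each control library, against 6.34% of all genes; the list holds Sgk1 and shares Dusp1, Errfi1 and Arl4d with the lists above. Per1, a clock gene known to respond to both cAMP and glucocorticoids, lies at chromosome 11, 69095217 to 69109960, plus strand. It stood at 16.5, 11.7 and 13.4 in the control, 18.7, 19.6 and 19.5 in the trained and 13.8, 13.3 and 14.6 in the naive libraries (log2 fold change 0.46 ± 0.10 SE, adjusted p = 0.502 by limma). The trained libraries lay above the other 6 and close together, and without control replicate 1 the log2 fold change was 0.59 (limma adjusted p = 0.0320). Under other alternatives the limma adjusted p of Per1 was as high as 0.964. Nfkbia, the inhibitor of NF-kappa-B, stood at 10.3, 9.51 and 10.3 in the control, 12.02, 15.4 and 13.6 in the trained and 9.50, 12.5 and 11.1 in the naive libraries (log2 fold change 0.41 ± 0.11 SE, adjusted p = 0.502 by limma). Ddit4, an inhibitor of the growth kinase complex mTORC1, stood at 30.1, 20.1 and 21.7 in the control, 37.8, 30.3 and 31.4 in the trained and 29.2, 30.03 and 34.0 in the naive libraries. Nfkbia was separated from the controls but overlapped the naive range, and the naive libraries of Ddit4 were as high as the trained ones. Fkbp5, a chaperone of the glucocorticoid receptor and the best known glucocorticoid target in brain, stood at 20.4, 14.6 and 15.4 in the control, 20.3, 17.1 and 18.7 in the trained and 20.4, 18.7 and 21.6 in the naive libraries (log2 fold change 0.16 ± 0.12 SE, adjusted p = 0.705 by limma). Its ranges overlapped in all 3 groups. The receptors themselves did not differ beyond their spread: Nr3c1, the glucocorticoid receptor, stood at 21.04, 22.1 and 24.1 and 20.7, 21.4 and 20.9, and Nr3c2, the mineralocorticoid receptor, at 40.7, 41.0 and 45.2 and 44.2, 42.0 and 45.4. The receptors were named after their values were seen.

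Most markers of granule neurons lay above 0 as well, though few were separated. Of 17 dentate granule markers 16 lay above 0, and the median log2 fold change was 0.36, and in 1 of the 17 (5.88%) each trained library exceeded each control library, close to the 6.34% of all genes. Their summed level was 289, 157 and 149 FPKM in the control, 329.9, 197 and 231 in the trained and 356, 278 and 344 in the naive libraries, so control replicate 1 exceeded trained replicates 2 and 3. In bulk tissue more cells of a type and more RNA per cell cannot be told apart. Capn3, a protease gene high in granule neurons, stood at 3.20, 2.203 and 2.09 and 3.79, 3.49 and 3.38 (log2 fold change 0.39 ± 0.12 SE, adjusted p = 0.593 by limma). Stxbp6, a syntaxin-binding protein gene, stood at 45.0, 26.5 and 23.01 and 56.5, 34.5 and 39.2 with overlap. Control replicate 1, which had the most granule RNA of the controls, was also the control with the highest Arc, Fos, Egr1, Junb, Per1 and Sgk1. Among the trained libraries the order was the reverse, as replicate 1 had the highest dentate sum and the lowest level of each of these genes. The naive libraries, with dentate sums of 356, 278 and 344, had Arc and Fos below every trained library. For Sgk1, control replicate 1 stood at 16.6 against 26.4 FPKM in trained replicate 1, whose dentate sum was the nearest to its own among the trained libraries. The part of granule RNA in the activity genes was not tested.

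Beyond Sgk1, the genes with the smallest unadjusted p fall into those that were alike in the naive libraries and those that were not. Agmo, an enzyme that cleaves ether lipids, stood at 1.98, 1.77 and 1.65 in the control, 3.22, 3.51 and 3.02 in the trained and 2.85, 2.93 and 2.89 in the naive libraries (log2 fold change 0.60 ± 0.07 SE, adjusted p = 0.0932 by limma). Ralyl, an RNA-binding protein gene, stood at 23.9, 24.99 and 22.5 in the control, 29.6, 30.4 and 30.3 in the trained and 31.4, 32.0 and 31.4 in the naive libraries (log2 fold change 0.33 ± 0.04 SE, adjusted p = 0.196 by limma). Cyld, a deubiquitinase that restrains NF-kappa-B, stood at 15.7, 12.9 and 13.2 in the control, 19.1, 19.9 and 20.8 in the trained and 18.2, 20.4 and 19.4 in the naive libraries (limma adjusted p = 0.318). In all 3 the trained libraries lay above the controls by more than the spread within a group, and the naive libraries, which are set against the same controls, were close to the trained ones. Alcam, a cell adhesion gene, stood at 19.7, 16.9 and 19.5 in the control, 22.99, 24.8 and 24.7 in the trained and 26.9, 26.5 and 25.4 in the naive libraries. Gimap6, a GTPase gene of lymphocytes, stood at 1.38, 1.45 and 1.27 in the control, 2.16, 3.07 and 2.38 in the trained and 2.25, 2.28 and 2.11 in the naive libraries. The same holds for both and for Smg6, an endonuclease of nonsense-mediated decay, at 6.85, 6.31 and 6.09 in the control, 8.16, 7.85 and 7.85 in the trained and 8.42, 8.25 and 7.82 in the naive libraries. By contrast Rsrp1, which encodes an arginine- and serine-rich protein, stood at 82.9, 75.2 and 64.9 in the control, 97.2, 102.2 and 107.2 in the trained and 79.98, 82.3 and 79.5 in the naive libraries, and Tiparp, a mono-ADP-ribosyltransferase, at 5.28, 4.32 and 4.63 in the control, 6.14, 6.65 and 7.83 in the trained and 5.46, 5.58 and 5.60 in the naive libraries. In these and in Lysmd1, at 6.09, 6.79 and 6.01 in the control, 7.997, 8.11 and 7.94 in the trained and 7.40, 6.91 and 7.32 in the naive libraries, the trained libraries lay above both other groups. Without control replicate 1 the adjusted p fell under the threshold for Agmo, Cyld and Rsrp1, with log2 fold changes of 0.65 (limma adjusted p = 0.0255), 0.58 (limma adjusted p = 0.0255) and 0.54 (limma adjusted p = 0.0460). Under other alternatives their limma adjusted p was as high as 0.651, 0.928 and 0.964. Limma adjusted p-values against control in all libraries lay between 0.318 and 0.471 for Gimap6, Rsrp1, Lysmd1, Alcam, Tiparp and Smg6.

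The genes with the smallest p among the lower ones were of several cell types and none passed the test. Panx2, which encodes a large-pore channel of neurons, stood at 37.0, 39.4 and 40.1 in the control, 31.9, 32.3 and 30.6 in the trained and 33.9, 33.6 and 33.7 in the naive libraries (log2 fold change -0.29 ± 0.04 SE, adjusted p = 0.293 by limma). Grm3, a metabotropic glutamate receptor of astrocytes and neurons, stood at 18.2, 20.00 and 20.1 in the control, 15.5, 16.1 and 16.0 in the trained and 18.3, 19.0 and 18.5 in the naive libraries (log2 fold change -0.28 ± 0.05 SE, adjusted p = 0.318 by limma). Mfge8, a secreted protein that marks dying cells for phagocytes, stood at 47.8, 50.8 and 55.9 in the control, 39.1, 41.0 and 36.9 in the trained and 47.4, 43.6 and 44.1 in the naive libraries (log2 fold change -0.39 ± 0.07 SE, adjusted p = 0.318 by limma). The trained libraries lay below the controls in each, and below the naive libraries as well. Without control replicate 1 the log2 fold change was -0.32 (limma adjusted p = 0.0417) for Panx2 and -0.32 (limma adjusted p = 0.0427) for Grm3, both past the threshold. Other alternatives gave limma adjusted p as high as 0.887 for Panx2 and 0.964 for Grm3. Apln, the ligand of the apelin receptor, stood at 8.98, 11.1 and 10.01 in the control, 6.91, 7.39 and 6.39 in the trained and 7.03, 8.08 and 7.07 in the naive libraries. Sox18, a transcription factor of endothelial cells, stood at 4.28, 4.62 and 4.12 in the control, 3.19, 2.49 and 2.17 in the trained and 4.38, 4.06 and 3.27 in the naive libraries. Cox6b2, an isoform of a cytochrome c oxidase subunit, stood at 2.45, 3.54 and 3.96 in the control, 1.16, 1.45 and 0.998 in the trained and 0.817, 1.29 and 1.69 in the naive libraries. Apln and Cox6b2 were as low in the naive as in the trained libraries, while Sox18 was lower in the trained ones than in both other groups. Tsc2, which encodes tuberin, an inhibitor of mTORC1, stood at 15.0, 16.4 and 16.3 in the control, 14.0, 12.9 and 12.7 in the trained and 16.3, 15.2 and 14.8 in the naive libraries. Traf3, an adaptor of immune receptors, stood at 10.5, 9.22 and 10.6 in the control, 8.02, 8.08 and 7.9005 in the trained and 9.39, 9.26 and 8.36 in the naive libraries. Both were below all controls in all 3 trained libraries. Pstk, a kinase that modifies the tRNA of selenocysteine, Fam189b, Specc1 and the lectin gene Clec2l complete the 12, with limma adjusted p between 0.318 and 0.502 and log2 fold changes of -0.32, -0.20, -0.21 and -0.32.

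Genes of class II antigen presentation were many-fold higher in the trained than in the control libraries, with a wide spread between libraries. Of 13 on the list 9 passed the filter, and 4 of these, Cd74 not among them, had a control mean under 1 FPKM and so entered through the trained libraries; the counts are therefore a description. All 9 lay above 0, and in 8 (88.9%) each trained library exceeded each control library, against 6.34% of all genes. Cd74, the invariant chain that loads class II molecules, stood at 0.401, 2.33 and 1.21 in the control, 30.5, 69.9 and 44.2 in the trained and 22.6, 125 and 3.30 in the naive libraries (log2 fold change 4.42 ± 1.01 SE, adjusted p = 0.502 by limma). H2-Aa, a chain of the class II molecule, lies at chromosome 17, 34282744 to 34287823, minus strand and stood at 0.282, 0.630 and 0.520 in the control, 9.61, 20.8 and 13.8 in the trained and 8.56, 50.2 and 0.500 in the naive libraries (log2 fold change 3.36 ± 1.02 SE, adjusted p = 0.597 by limma). In both genes naive replicate 2 lay above every trained library, and naive replicate 1 lay below every trained and above every control library. Naive replicate 3 was within the control range for H2-Aa and just above it for Cd74. H2-Ab1, the partner chain, stood at 0.330, 0.340 and 0.492 in the control, 5.82, 14.5 and 9.18 in the trained and 7.10, 42.4 and 1.02 in the naive libraries. H2-Eb1 stood at 0.366, 0.522 and 0.551 in the control and 4.74, 12.8 and 7.43 in the trained libraries. No trained library of these 4 genes was within the range of the controls, yet the spread that the fit shares with the naive group is wide. In the fit of only the 6 trained and control libraries the limma adjusted p was 0.0332 for Cd74, whose control mean was above 1 FPKM.

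Class I genes were higher by smaller factors from a higher base. Of 21 measured members 17 lay above 0, and the median log2 fold change was 0.31, and in 6 of the 21 (28.6%) the trained libraries lay above the controls, against 6.34% of all genes; 1 of the 21 entered the filter through the trained libraries alone. H2-D1, a heavy chain of class I, stood at 17.4, 28.8 and 21.9 in the control, 50.7, 112 and 80.3 in the trained and 37.9, 140.3 and 34.2 in the naive libraries (log2 fold change 1.75 ± 0.51 SE, adjusted p = 0.592 by limma). B2m, the light chain, stood at 101.9, 155 and 122 in the control, 186, 366 and 269 in the trained and 154, 537 and 186 in the naive libraries (log2 fold change 1.08 ± 0.44 SE, adjusted p = 0.634 by limma). H2-K1, another heavy chain, stood at 13.8, 21.99 and 16.0 in the control and 33.3, 73.5 and 50.7 in the trained libraries. Trained replicate 1 was the lowest of its group and replicate 2 the highest in each of these genes, and naive replicate 2 exceeded them all. Class I genes are near-identical in sequence, so the share of fragments given to each by the authors' counting is uncertain.

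Interferon-stimulated genes, which often accompany antigen presentation, lay on the other side of 0 in many cases. Of 35 measured members 11 lay above 0 and 24 below, with a median log2 fold change of -0.22. Of the 35, 3 had a mean under 1 FPKM in either the trained or the control libraries. They passed the filter through the other group, so the counts are a description. In 6 of the 35 (17.1%) each trained library was below each control library, against 6.11% of all genes. In 2 (5.71%), Irf1 and Irf8, each was above, near the 6.34% of all genes, with log2 fold changes of 0.48 and 0.45. Igtp, Iigp1 and Gbp2 were also above 0, at 0.77, 0.61 and 0.60, with overlapping ranges. All of these were named after their values were seen, and the genes described next are lower ones. Isg15, a ubiquitin-like modifier, stood at 6.30, 12.4 and 4.83 in the control, 1.75, 2.83 and 3.26 in the trained and 6.42, 32.7 and 49.5 in the naive libraries (log2 fold change -1.22 ± 0.63 SE, adjusted p = 0.668 by limma). Ifit3, which binds viral RNA complexes, stood at 8.40, 19.4 and 10.6 in the control, 4.42, 7.23 and 6.98 in the trained and 7.17, 31.8 and 46.7 in the naive libraries (log2 fold change -0.88 ± 0.58 SE, adjusted p = 0.690 by limma). Both were lower in the trained than in the control libraries, and naive replicates 2 and 3 were above both groups. Rtp4, an interferon-induced chaperone gene, stood at 2.77, 4.99 and 3.36 in the control, 1.10, 1.92 and 2.44 in the trained and 2.43, 10.6 and 9.64 in the naive libraries. Ifi27 stood at 38.3, 53.6 and 53.4 in the control, 30.8, 33.9 and 36.8 in the trained and 23.7, 44.8 and 31.8 in the naive libraries. Rtp4 and Ifi27 were below the controls in every trained library, Ifi27 with a log2 fold change of -0.49 ± 0.21 SE (limma adjusted p = 0.638). Usp18, the protease that removes Isg15 from proteins, and Ifit1, named after their values were seen, stood at 1.37, 3.75 and 1.86 and 2.59, 6.46 and 3.18 in the control and at 0.542, 1.13 and 1.28 and 1.42, 2.21 and 2.30 in the trained libraries, lower in each. Usp18 had a trained mean under 1 FPKM and passed the filter through the control libraries, so its difference is a description.

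**Figure D3:**
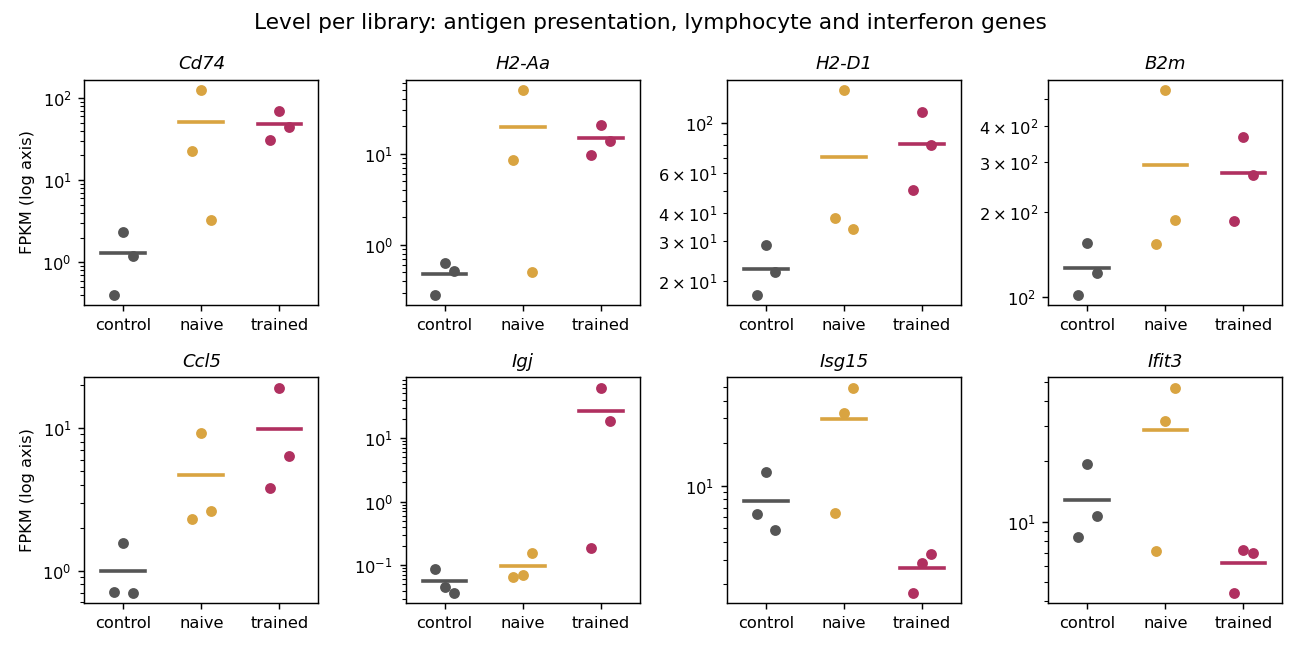
FPKM per library (points, log axis) and group mean (bars) for 8 immune genes. The 3 trained libraries lie above the 3 controls for Cd74, H2-Aa, H2-D1, B2m, Ccl5 and Igj and below them for Isg15 and Ifit3, and Igj reaches 61.6 in trained replicate 2 and 18.5 in trained replicate 3.

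Transcripts of lymphocytes and plasma cells were present in the trained libraries at very unequal levels. Ccl5, a chemokine of cytotoxic T cells, stood at 0.708, 1.57 and 0.701 in the control, 3.82, 19.1 and 6.37 in the trained and 2.29, 9.21 and 2.63 in the naive libraries (log2 fold change 2.19 ± 0.56 SE, adjusted p = 0.502 by limma). Igj, the joining chain that plasma cells add to secreted antibody, stood at 0.0873, 0.0450 and 0.0372 in the control, 0.184, 61.6 and 18.5 in the trained and 0.0660, 0.0716 and 0.155 in the naive libraries (log2 fold change 3.42 ± 1.15 SE, adjusted p = 0.634 by limma). Mzb1, a chaperone of plasma cells and marginal zone B cells, was listed at 0, 0 and 0.0978 in the control, 0, 7.87 and 1.94 in the trained and 0, 0.0472 and 0 in the naive libraries. Trained replicates 2 and 3 thus stood apart for both plasma cell genes, and trained replicate 1 was near the level of the other groups. Without trained replicate 1 the log2 fold change of Igj was 5.05. Ccl5, Igj and Mzb1 had control means under 1 FPKM and passed the filter through the libraries where they were high, so their differences are a description. Over the B and plasma cell list, of which 2 of 10 genes passed the filter, the summed level was 0.260, 0.501 and 0.907 FPKM in the control, 0.684, 75.6 and 22.6 in the trained and 0.724, 0.613 and 0.524 in the naive libraries. Most of the sum in trained replicates 2 and 3 is Igj. The defining B cell genes Cd79a, Cd79b and Ms4a1, named after their values were seen, followed at low levels, with Cd79a at 0.0730, 0.113 and 0.0622 in the control and 0.0341, 1.91 and 0.618 in the trained libraries and Ms4a1 at 0, 0 and 0 and 0, 0.332 and 0.227. For the 20 genes of the T and NK cell list the sum was 2.07, 3.99 and 2.70 FPKM in the control, 6.25, 26.9 and 11.7 in the trained and 4.71, 17.0 and 4.25 in the naive libraries, with Ccl5 the only member past the filter. Each trained library exceeded each control library in that sum, and an exact two-sided permutation test of 3 against 3 cannot give a p below 0.1. Cd3e, a chain of the T cell receptor complex, stood at 0, 0.103 and 0.0568 in the control and 0.0623, 0.524 and 0.263 in the trained libraries, and Cd52, a surface protein of lymphocytes and microglia, at 2.69, 3.02 and 4.02 and 3.78, 22.4 and 10.4. Ly6c2, a monocyte and T cell surface gene, stood at 1.38, 2.14 and 1.46 and 3.31, 15.2 and 9.68. The order of the trained libraries, with replicate 2 the highest and replicate 1 the lowest, was the same for Cd3e, Cd52, Ly6c2, Ccl5, Cd74 and H2-D1. It was also the order of the microglial sum and of Ctss, Trem2 and C1qc, described below. The parts of lymphocyte and of microglial RNA in the class I and class II levels were not tested.

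Most microglial markers lay above 0 as well. Of 28 measured markers 27 lay above 0, and the median log2 fold change was 0.36, and in 12 (42.9%) each trained library exceeded each control library, against 6.34% of all genes, though 0 passed the adjusted threshold. Their summed level was 396, 384 and 475 FPKM in the control, 488, 739 and 586 in the trained and 498, 1003 and 545 in the naive libraries. Ctss, a lysosomal protease that cuts the invariant chain, stood at 45.0, 51.0 and 63.7 in the control, 80.4, 138 and 103 in the trained and 71.8, 190.3 and 64.2 in the naive libraries (log2 fold change 0.98 ± 0.38 SE, adjusted p = 0.634 by limma). Trem2, a lipid receptor of microglia, stood at 7.39, 7.23 and 8.37 in the control and 8.95, 14.8 and 11.2 in the trained libraries. Siglech, a lectin of microglia, stood at 4.64, 4.35 and 5.27 and 5.97, 6.72 and 6.48, and Cx3cr1, the fractalkine receptor, at 11.0, 11.2 and 14.0 and 12.2, 16.0 and 14.2. Ctss, Trem2 and Siglech were separated from the controls, while Cx3cr1 overlapped at control replicate 3. Complement genes, many made by microglia, lay above 0 in 12 of 14 measured members, and the median log2 fold change was 0.45, and 7 of the 14 (50.00000%) were separated upward and 1 (7.14%) downward, against 6.34% and 6.11% of all genes. C1qc, a chain of the initiating C1q complex, stood at 29.6, 27.8 and 34.2 in the control, 36.7, 60.3 and 45.5 in the trained and 36.0, 84.3 and 42.2 in the naive libraries (log2 fold change 0.60 ± 0.29 SE, adjusted p = 0.662 by limma). Itgam and Itgb2, which form complement receptor 3, stood at 4.67, 3.98 and 5.34 and 1.27, 1.45 and 1.92 in the control and at 5.80, 6.98 and 6.54 and 2.14, 4.12 and 3.02 in the trained libraries. The member that was lower, Cd59a, an inhibitor of the membrane attack complex, stood at 1.72, 2.03 and 3.30 and 1.31, 1.54 and 1.34 (log2 fold change -0.45 ± 0.15 SE, adjusted p = 0.634 by limma). Of the 13 reactive astrocyte genes 11 lay above 0, with a median of 0.17. Vim, an intermediate filament, stood at 14.0, 15.7 and 19.4 and 18.9, 26.4 and 24.2, and Gfap, the astrocyte filament, at 122, 133 and 159 and 146, 227 and 162, both with overlap.

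**Figure D4:**
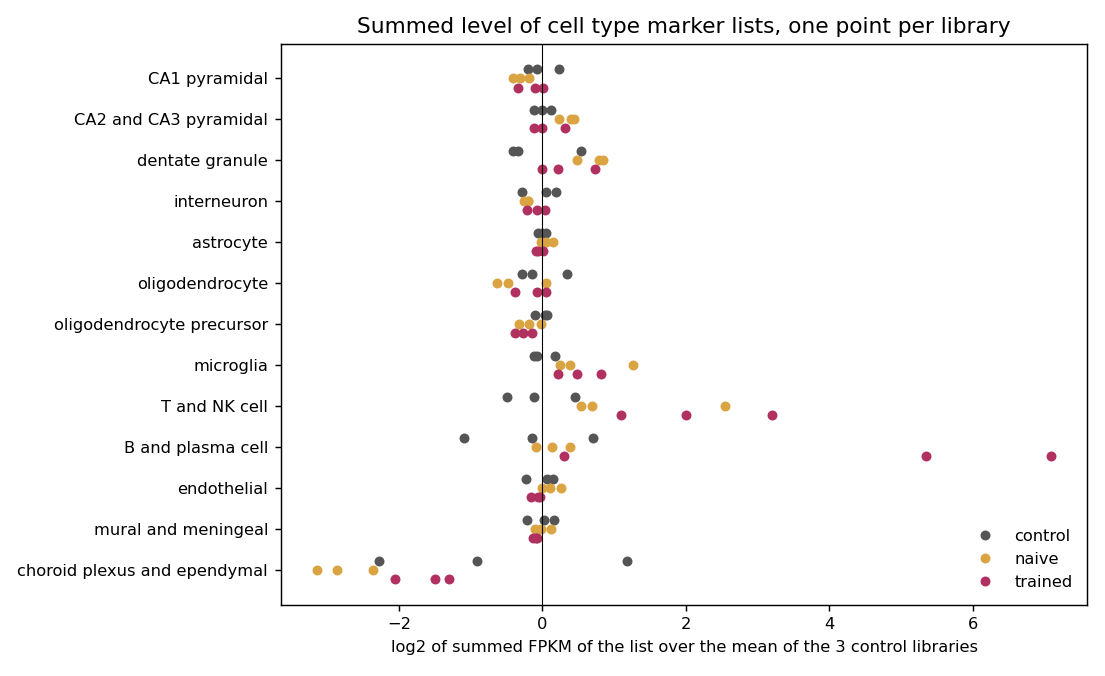
Log2 of the summed FPKM of each cell type marker list relative to the mean of the 3 control libraries, one point per library, with control, naive and trained libraries offset vertically. Microglia and T and NK cell sums lie higher in each trained than in each control library, B and plasma cell sums stand out in trained replicates 2 and 3, and control replicate 3 stands out for choroid plexus markers.

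Neuronal and glial lists on the lower side differed by small amounts. Of 75 nuclear subunits of the respiratory chain 74 lay below 0, and the median log2 fold change was -0.11, but only 5 (6.67%) were separated, close to the 6.11% of all genes. Ndufs5, a subunit of complex I, stood at 33.0, 39.4 and 33.9 in the control, 26.2, 26.2 and 29.6 in the trained and 41.0, 46.0 and 37.5 in the naive libraries (log2 fold change -0.36 ± 0.09 SE, adjusted p = 0.502 by limma). Uqcrfs1, the iron-sulfur subunit of complex III, stood at 69.3, 76.3 and 76.9 in the control and 60.1, 68.2 and 64.9 in the trained libraries. Cox6c, a subunit of complex IV, stood at 202, 245 and 225 and 193, 203 and 190.0. In Ndufs5 and Uqcrfs1 all trained libraries lay below all controls, in Ndufs5 below all naive libraries too, while Cox6c overlapped narrowly. Presynaptic release genes lay below 0 in 32 of 36 measured members, with a median of -0.08 and 3 separated downward (8.33%), near the share of all genes. Syn1, a phosphoprotein of synaptic vesicles, stood at 108.02, 111 and 110.2 and 103, 104.4 and 99.9 (limma adjusted p = 0.638). Heat shock and unfolded protein response genes lay below 0 in 30 of 33, with a median of -0.10 and 2 separated downward (6.06%), also near that share. Without control replicate 1, that median was 0.03.

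Among the glial markers, 7 of 8 of oligodendrocyte precursors lay below 0, and the median log2 fold change was -0.20, and 3 (37.5%) were separated downward, against 6.11% of all genes. Their summed level was 77.2, 86.5 and 85.3 FPKM in the control and 63.9, 75.5 and 68.7 in the trained libraries, so every trained sum was lower. Pdgfra, the growth factor receptor of precursors, stood at 6.75, 7.70 and 7.87 and 5.50, 6.77 and 6.28 (log2 fold change -0.23 ± 0.08 SE, adjusted p = 0.634 by limma). Olig2, the transcription factor of the lineage, stood at 9.78, 11.6 and 9.76 and 7.28, 9.12 and 8.25, and Olig1 at 34.6, 43.2 and 42.0 and 28.6, 33.2 and 32.3. Olig1 and Olig2 were separated downward and Pdgfra overlapped narrowly. In astrocytes 11 of 17 markers lay below 0, with a median of -0.07, and 6 were separated downward (35.3%, against 6.11% of all genes). Acsbg1, a fatty acid enzyme, stood at 38.5, 41.9 and 42.0 and 35.6, 38.1 and 33.5, and Aldoc, the brain form of aldolase, at 294, 310.0 and 334 and 279, 289 and 282. Both were lower in each trained than in each control library, while the summed astrocyte level, 1947, 2021 and 2101 against 1909, 2043 and 1944, overlapped. Markers of CA1 pyramidal neurons lay below 0 in 10 of 11, with a median of -0.12 and 0 separated, and their sum was 383, 419 and 519 in the control and 348, 411 and 444 in the trained libraries. Without control replicate 3, the median was 0.02.

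**Figure D5:**
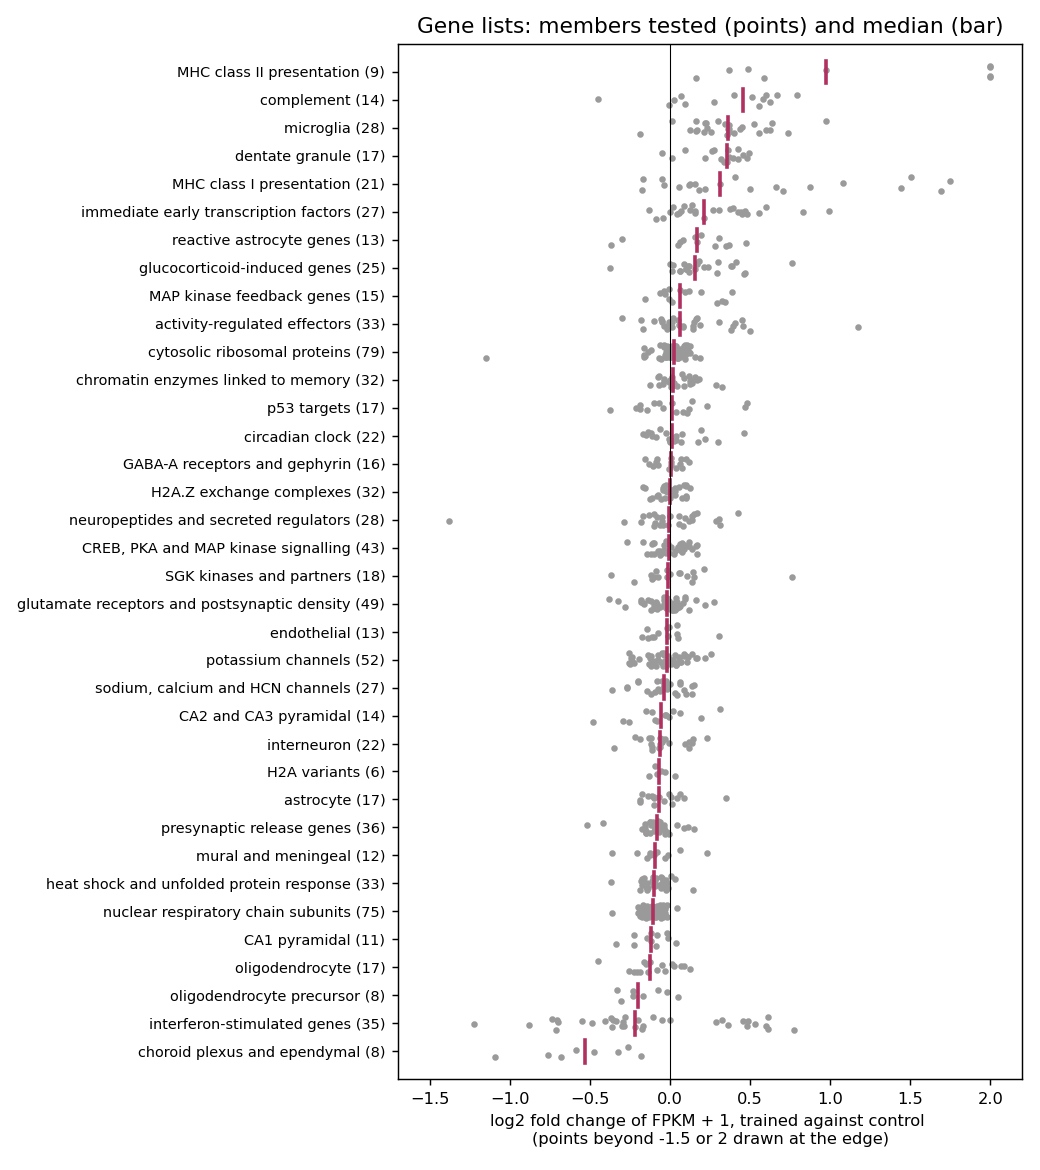
Log2 fold change of FPKM + 1, trained against control, of each measured member (points) and the median (bars) of the lists with at least 5 measured members; the number measured is in parentheses. Class II, complement, microglia and dentate lists lie highest, and choroid plexus, interferon-stimulated and oligodendrocyte precursor lists lowest. Some members of the class II, choroid plexus and interferon-stimulated lists passed the filter through a single group.

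The trained libraries also differed among themselves in genes known to be high in the subiculum, the field next to CA1. Nts, the neuropeptide neurotensin, stood at 14.9, 17.8 and 13.3 in the control, 6.02, 17.0 and 7.98 in the trained and 10.6, 8.10 and 9.78 in the naive libraries. Slc17a6, the vesicular glutamate transporter VGLUT2, stood at 8.29, 14.3 and 6.50 in the control, 3.97, 11.5 and 4.84 in the trained and 5.93, 4.70 and 6.16 in the naive libraries. Tshz2 and Nxph3, named after their values were seen, stood at 13.04, 24.7 and 8.67 and 11.1, 16.4 and 9.42 in the control and at 6.81, 17.6 and 8.53 and 5.28, 13.1 and 6.02 in the trained libraries. Control replicate 2 and trained replicate 2 were the highest of their groups in all 4 genes. With both left out, an alternative chosen after seeing the data, the log2 fold change of Sgk1 was 0.75 and its limma adjusted p 0.248, with 3 genes higher past the threshold. Of the other genes with the widest range in the trained group, Snhg9, a small nucleolar RNA host gene, stood at 3.60, 8.62 and 5.07 in the control and 8.60, 5.21 and 1.33 in the trained libraries. Eif3j2 stood at 16.8, 17.4 and 16.8 and 16.8, 6.44 and 17.4, and in naive replicate 2 at 3.23, but it has a near-identical copy, so its own level is uncertain.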

How the data were processed

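Per the labels' protocols, total RNA (1 µg, RIN above 7.9) of area CA1 was extracted with RNeasy, and directional libraries of polyadenylated RNA were read from both ends, 50 bp each, on an Illumina HiSeq2000. FastQC, TopHat 1.4.0, Cufflinks and Cuffdiff were the tools and mm10 the genome build, per the submitters' processing notes. The authors deposited FPKM values per gene and library, without counts, so depth is known only from the steps between low values (relative depth 0.913 to 1.21) and no counting interval is given. Total FPKM was 296327 to 442251 per library, and 270418 to 285050 without rows of small RNA genes.

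Left out were 27 rows whose names had become dates. Of the rest, 5961 were 0 in all 6 libraries and 12250 had a mean of at least 1 FPKM over them. Among these, 97 rows share a name and 118 are at 0 in a library; none of those with a shared name is described. Coordinates are from GENCODE M21 (GRCm38, the assembly of mm10), in which 95.4% of symbols were found.

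Values were transformed to log2(FPKM + 1). A 3-group model over all 9 libraries was fitted in R 4.3.3 by limma 3.58.1, with a variance trend, two-sided tests, and 6 residual and 2.79 prior degrees of freedom. P-values were adjusted by Benjamini-Hochberg over the 12250 genes, with a threshold of 0.05. The method was checked on simulated data, drawn gene by gene without shifts shared by a whole library, so the check does not cover such shifts. There, 78.4% of 1.5-fold changes were called and 5.76% of calls were false. Lists were described by counts and medians and not tested. A gene is called separated where all 3 trained values lie on one side of all 3 control values.

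The members and the 38 gene lists were chosen with earlier results of these data known. Genes named are H2afz and H2afv; genes past the threshold; the 12 genes of smallest unadjusted p in each direction; up to 4 members of smallest p of a described list; 20 fixed genes; and the 8 genes of at least 5 mean FPKM with the widest range among the trained libraries. Predicted genes, small RNA genes, shared names and genes at 0 in any of the 6 libraries were not named as past the threshold, by p or by range. Some genes that these rules name are not reported here. Other genes are said to be named after their values were seen. Alternatives were the 6 libraries alone, other filters, a pseudocount of 0.1, median-of-ratios and quantile scaling, other variance models, no small RNA rows, and each library left out. Lists, sequences and figures were made in Python 3.11.15 (pandas 2.3.3, matplotlib 3.10.9).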

Additional observations from a re-analysis of the deposited data

Results flagged for a closer look

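Sgk1 was marked because the trained and the naive group, set against the same 3 control libraries, differ in it by the test of the difference itself. Trained against naive the log2 fold change of Sgk1 was 0.85 ± 0.07 SE (limma adjusted p = 0.00640), and each of the 3 trained values lay above each naive value. No group has enough libraries to test single libraries as outliers.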

How the results depend on the processing

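The limits lie in 3 libraries a group, in depth known only by an estimate, and in hairpin and training that cannot be told apart. Over 21 alternatives the log2 fold change of Sgk1 against control kept its sign. Its limma adjusted p missed the threshold without control replicate 2 (0.7614, adjusted p = 0.170), trained replicate 2 (0.75, 0.0841), trained replicate 3 (0.7641, 0.202) and naive replicate 2 (0.7603, 0.0505), and with control and trained replicates 2 both left out (0.7511, 0.248). The range over single libraries left out was 0.7068 to 0.8126. Against naive it missed without trained replicate 3 (0.856, 0.09) and with both replicates 2 left out (0.842, 0.115), in a range of 0.7956 to 0.8822 over single libraries. Of the genes past the threshold, 5 were higher with only the 6 libraries and 2 without a trend in the prior variance, Sgk1 and Agmo. With both replicates 2 left out 3 were higher. Leaving out single libraries gave 0 to 15 higher and 0 to 7 lower, the most without control replicate 1. Separated genes numbered 777 to 2278 higher and 748 to 2492 lower with a library left out, 463 higher with a filter of 5 FPKM, and 1631 higher and 2446 lower with both replicates 2 left out. Fewer values have to be separated when fewer libraries are compared, and fewer genes are tested with that filter. Scaling factors by median-of-ratios were 0.987 to 1.02.

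Some single genes changed sign, none past the threshold. Wfs1 was at 0.022 with quantile normalization, 0.0232 with array weights and 0.0312 with both replicates 2 left out, and ranged from -0.1427 to 0.0824 over single libraries left out. Over those, H2afz ranged from -0.12 to 0.0028, Eif3j2 from -0.6449 to 0.0076, Npas4 from -0.0218 to 0.4791, Ttr from -2.1661 to 0.0753 and Snhg9 from -0.7618 to 0.2587. Nr4a2 ranged from -0.1402 to 0.127 over single libraries and was at -0.029 with array weights. With both replicates 2 left out H2afz was at 0.0443, Eif3j2 at 0.0245 and Nr4a2 at -0.0868. The cause was not tested. No paired analysis was possible because the replicate numbers come from the order of the accessions and no label pairs the samples.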

Other observations

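Of 22 circadian clock genes 11 lay above 0, and the median log2 fold change was 0.01. Besides Per1, Ciart, a repressor of the clock, stood at FPKM levels of 3.72, 3.94 and 4.23 in the control, 4.99, 5.24 and 5.10 in the trained and 3.52, 3.11 and 4.44 in the naive libraries (log2 fold change 0.30 ± 0.10 SE, adjusted p = 0.634 by limma), above both other groups in each trained library. Chromatin enzymes linked to memory had a median of 0.02 over 32 genes. Of these, Ezh2, the methyltransferase of Polycomb complex 2, stood at 1.61, 1.23 and 1.36 in the control, 1.94, 1.87 and 2.19 in the trained and 1.83, 2.05 and 1.81 in the naive libraries, and Kdm6b, which removes the same mark, at 6.92, 5.40 and 5.37 in the control, 7.47, 7.31 and 7.27 in the trained and 6.43, 6.26 and 6.21 in the naive libraries. In both, every trained library exceeded every control, and for Kdm6b also every naive library (limma adjusted p = 0.502 and 0.587 against control). Without control replicate 1 the log2 fold change of Kdm6b was 0.39 (limma adjusted p = 0.0396), while under other alternatives its limma adjusted p was as high as 0.964. Subunits of complexes for H2A.Z exchange, 32 in number, had a median of -0.00, with 16 above 0 and 16 below.

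Ion channels differed little. Potassium channels had a median log2 fold change of -0.02 over 52 genes and sodium, calcium and HCN channels -0.04 over 27. Hcn2, a pacemaker channel of pyramidal dendrites, stood at 29.5, 37.8 and 36.3 in the control, 24.5, 28.6 and 26.6 in the trained and 24.3, 25.02 and 26.0 in the naive libraries (log2 fold change -0.36 ± 0.09 SE, adjusted p = 0.502 by limma), lower in every library with the H2A.Z hairpin than in every control. Glutamate receptors and the postsynaptic density had a median of -0.02 over 49 genes, GABA-A receptors and gephyrin 0.00 over 16, neuropeptides and secreted regulators -0.01 over 28, and CREB, PKA and MAP kinase signalling -0.01 over 43. Cytosolic ribosomal proteins had a median of 0.02 over 79 genes and p53 targets 0.01 over 17. With quantile normalization the medians of the H2A.Z exchange, neuropeptide and CREB lists lay at 0.00, 0.02 and 0.00, on the other side of 0.

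Of the remaining markers, CA2 and CA3 neurons had a median log2 fold change of -0.06 over 14 genes, interneurons -0.06 over 22, oligodendrocytes -0.12 over 17, endothelial cells -0.02 over 13, mural and meningeal cells -0.10 over 12, and choroid plexus and ependyma -0.53 over 8. Of these 8, 3 passed the filter through a single group, Folr1 and Clic6 among them through the controls, so the choroid plexus median is a description. It ranged from -0.8972 to -0.0962 with single libraries left out. The choroid plexus sum was 88.1, 227 and 966 FPKM in the control and 152, 103 and 174 in the trained libraries.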
